A study of Mus musculus with 18 samples.

Results

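Gene expression was compared between bone marrow macrophages of 2 genotype labels after stimulation with BMP4, over all genes that passed a filter on low counts. The filter kept 13747 of the 54532 genes in the deposited count table, and 6 of the 18 libraries of the series enter the comparison, 3 per label. The labels give the floxed group as Smad1 fl/fl and the knockout group as Smad1 fl/fl + LyzM-Cre (MyS1KO), so that both carry loxP-flanked Smad1 alleles and differ in Cre recombinase under control of Lyz2 (the gene of lysozyme M), which is active in myeloid cells. Both groups came from the tibial marrow of mice aged 2 to 3 months. Marrow cells were held for 24 h with 12 ng/ml CSF-1 in medium holding 15% serum and 10% medium conditioned by WEHI-3 cells, then non-adherent cells were grown for 48 h in 120 ng/ml CSF-1 and deprived of serum for about 16 h. BMP4 was then given at 50 ng/ml for 4 h. The 2 labels are also compared below without ligand and with 10 ng/ml TGF-β1, in 3 libraries each. Because Lyz2 goes against the labels, the groups are called KO-labelled and floxed-labelled throughout. Whether each library is a mouse or culture of its own is not stated, so p-values measure only how these libraries spread. An unknown part of that spread may be technical. Libraries of the same label and number deviated together across treatments (r 0.13 to 0.37 in 18 pairs), and what they share is not stated.

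BMP4 binds a complex of type I and type II receptors, and the activated type I receptor phosphorylates Smad1, Smad5 and Smad9. These join Smad4 and enter the nucleus, where they switch on the Id genes, which encode inhibitors of helix-loop-helix transcription factors, and the inhibitory Smads Smad6 and Smad7, which feed back on the pathway. Macrophages carry this pathway alongside the TGF-β pathway, which signals through Smad2 and Smad3.

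Levels are given in CPM, counts scaled by library size with TMM factors, for the KO-labelled libraries 1, 2 and 3 and then for the floxed-labelled libraries 1, 2 and 3. Each mean ± SD is over the 3 libraries of a group. Differences are log2, KO-labelled minus floxed-labelled, ± SE. "Adjusted p" is the two-sided p of edgeR's quasi-likelihood test on the 6 libraries with Benjamini-Hochberg adjustment over the 13747 genes, and a gene was called at an adjusted p under 0.05.

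The gene that carries Cre and the gene that Cre should delete were examined first. Lyz2 encodes the lysozyme of macrophages, and Cre placed in it interrupts the copy that carries it. Lyz2 (chromosome 10, 117277331 to 117282321 of mm10) stood at 17800, 15900 and 16500 CPM in the KO-labelled libraries and at 74.3, 9860 and 9550 CPM in the floxed-labelled libraries. All KO-labelled libraries were thus above all floxed-labelled libraries, the reverse of the order that a Cre insertion in the KO-labelled group would give, and floxed-labelled library 1 was near 0. The log2 difference was 1.36 ± 1.06 (adjusted p = 0.813), and it was 0.78 (adjusted p = 0.00858) without floxed-labelled library 1. Libraries with other treatments showed the same split: Lyz2 was at 62 and 37.6 CPM in the floxed-labelled libraries numbered 1 without ligand and with TGF-β1, and at 8110 CPM or more in the other floxed-labelled libraries.

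Lyz1, a neighbouring copy of lysozyme that is mainly known from the intestine, had values of 8.1, 6.49 and 7.63 CPM against 9.26, 9.14 and 13 CPM. The groups did not overlap, with the lower values in the KO-labelled libraries (log2 difference -0.50 ± 0.16, unadjusted p = 0.0118, adjusted p = 0.638). Because reads could be shared between such copies, the first 120 coding bases of each, from GENCODE transcripts of GRCm38, are shown with the bases that differ in capitals.
Lyz1: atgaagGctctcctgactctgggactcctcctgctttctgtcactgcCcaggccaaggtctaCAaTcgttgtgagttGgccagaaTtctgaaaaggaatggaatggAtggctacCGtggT
Lyz2: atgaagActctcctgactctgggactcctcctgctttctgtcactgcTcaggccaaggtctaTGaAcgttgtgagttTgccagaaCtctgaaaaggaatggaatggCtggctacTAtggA
The coding sequences, 444 bases each, differed at 22 positions (95.0% identity), and their longest identical run was 118 bases. None of the 1114 windows of 150 bases in the Lyz1 transcript, the length of a read, was also present in the Lyz2 transcript. This count covers exact matches only, and alignments with mismatches were not tested. Among the floxed-labelled libraries Lyz1 in library 1 was 9.26 CPM with BMP4, between the others, and lowest with TGF-β1 (5.56, 8.47 and 11.9 CPM) and without ligand (9.33, 9.9 and 13 CPM).

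Smad1, the transducer that the study set out to delete, was read at 26.2, 24.8 and 24.3 CPM in the KO-labelled libraries and at 31, 29.6 and 27.6 CPM in the floxed-labelled libraries. The groups did not overlap, and the mean was 25.1 ± 1.00 against 29.4 ± 1.73 CPM. The log2 difference of -0.23 ± 0.07 did not pass the test (unadjusted p = 0.00982, adjusted p = 0.638), and it was -0.23 without ligand and -0.20 with TGF-β1. Counts cover the whole gene, and which exons the loxP sites flank is not given in the sources used here, so they do not show how many transcripts lack the deleted part.

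**Figure D1:**
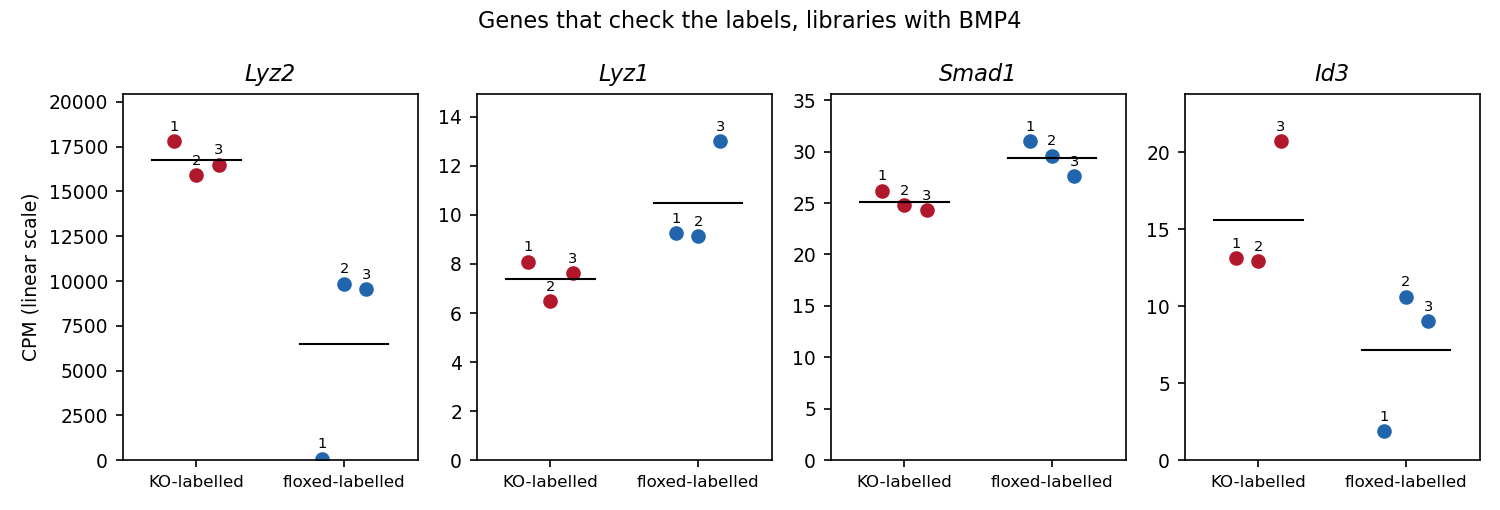
CPM of Lyz2, Lyz1, Smad1 and Id3 in each library with BMP4, on linear axes from 0, with library numbers beside the points and lines at the group means. Lyz2 is highest in the 3 KO-labelled libraries and 74.3 CPM in floxed-labelled library 1, and Id3 is lowest, at 1.88 CPM, in that same library.

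The cells were macrophages by their defining markers in all 6 libraries. The F4/80 gene Adgre1 lay between 3480 and 4750 CPM. Of 18 macrophage markers, 1 was lower at an unadjusted p under 0.05, the endotoxin co-receptor gene Cd14 (-0.23), and the groups did not overlap for 3, with 1 higher and 2 lower. Without KO-labelled library 1, 4 of the markers were lower and 1 higher at that p. Over all genes tested, 3.74% were lower at that p, and 7.14% were higher and 6.21% lower with no overlap. Of the markers of other cells, fibroblast genes were at a summed 10.2 to 11 CPM in KO-labelled and 13 to 25.2 CPM in floxed-labelled libraries, with floxed-labelled library 1 at 4.27 CPM of the collagen gene Col1a2. Neutrophil markers summed to 377 to 447 against 418 to 497 CPM. Monocyte and progenitor markers summed to 466 to 678 against 678 to 974 CPM. The T cell gene Cd3e was at 0 counts in all 6, but lymphoid markers together summed to 79.3 to 106 against 83.4 to 111 CPM. Among them Il7r was at 53.6 to 81.1 against 58.5 to 84.9 CPM, and Cd79b at 13.2 to 15.7 against 11 to 18.6 CPM. Total counts ran from 17947329 to 22174918, so that 3 counts were worth 0.135 to 0.167 CPM. Transcripts of ribosomal RNA type together with Lars2 took 1.46%, 0.451% and 0.246% of the counts in the KO-labelled and 0.188% to 0.325% in the floxed-labelled libraries, and the first principal component (25.3% of the variance) set KO-labelled library 2 apart from the other libraries. In bulk RNA, fewer cells of a type and less RNA per cell cannot be told apart.

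Across all genes, few differences between the labels passed a test under BMP4. With 3 libraries per label, a lack of calls does not show that the differences are small. No gene was called by edgeR (0 of 13747, 0%), while 975 genes (7.09%) had an unadjusted p under 0.05, with 461 (3.35%) higher and 514 (3.74%) lower in KO-labelled libraries. The groups did not overlap for 982 genes with higher values (7.14%) and for 854 with lower values (6.21%). A difference of at least 2-fold was found for 94 genes (0.684%), and for 59 of all genes tested (0.429%) it came with no overlap. Other tests made calls on the same 6 libraries: DESeq2 called 29 of 12634 genes (0.23%; 12 or 0.095% higher, 17 or 0.135% lower), and the authors' deposited table held 30 calls among 24129 genes (0.124%; 13 or 0.0539% higher, 17 or 0.0705% lower). With all 18 libraries in the edgeR fit, 4 of 14684 genes were called (0.0272%). They were the kinesin gene Kif21b, higher (1 gene, 0.00681%), and Cpsf6, Rnf17 and Gsta3, lower (3 genes, 0.0204%). Counts of gene lists below are read against the shares of 3.35% higher and 3.74% lower. Counts without overlap are read against 7.14% higher and 6.21% lower.

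**Figure D2:**
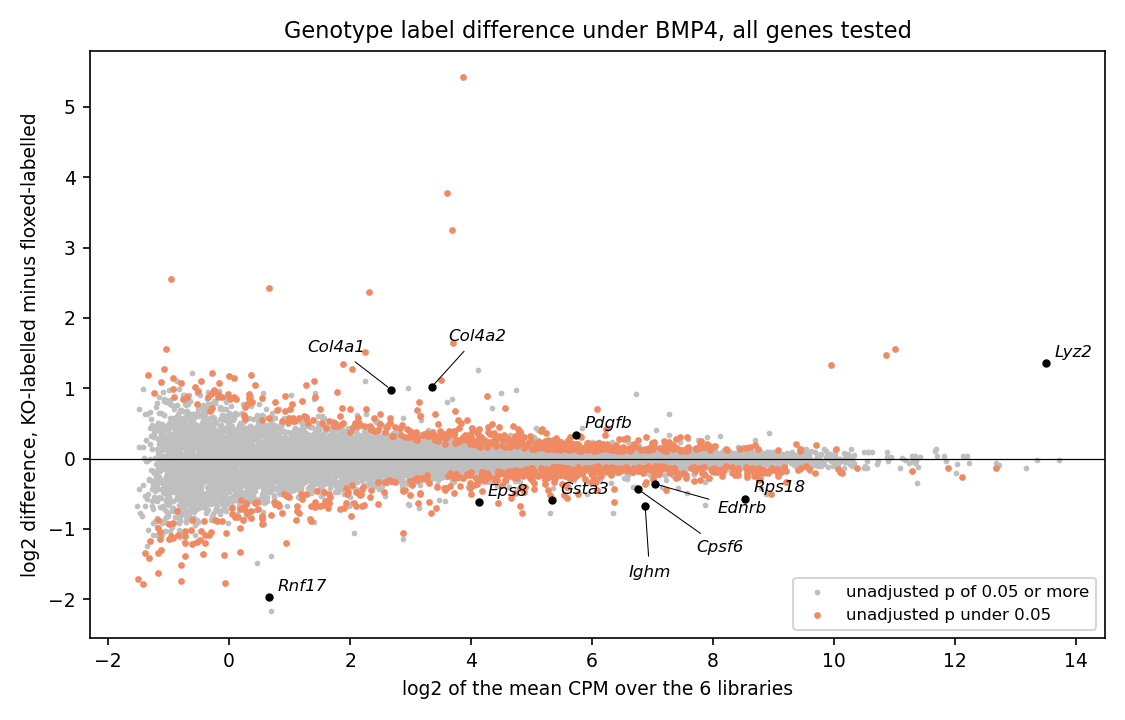
Log2 difference between KO-labelled and floxed-labelled libraries with BMP4 (y axis) against log2 of the mean CPM (x axis), 1 point per gene tested, with the 10 genes of lowest p and Lyz2 in black. Most genes lie near 0, and Lyz2, at a difference of 1.36, is not among the genes with an unadjusted p under 0.05.

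The 10 genes with the lowest p are given by value, since none passed the main test. They included both genes of the common type IV collagen chains, which form the sheet of basement membranes. Col4a2 (chromosome 8, 11312805 to 11449287) was at 12.6, 13 and 15.3 CPM against 7.66, 5.93 and 6.46 CPM. Col4a1 (chromosome 8, 11198423 to 11312826) was at 8.15, 8.34 and 9.05 CPM against 4.72, 4.21 and 3.92 CPM. For each, every KO-labelled library lay above every floxed-labelled library, with group means of 13.7 ± 1.46 against 6.68 ± 0.887 CPM and 8.51 ± 0.476 against 4.28 ± 0.407 CPM. The log2 differences were 1.02 ± 0.13 and 0.98 ± 0.13, both with an edgeR adjusted p of 0.11. DESeq2 called both, Col4a2 with an adjusted p of 4.45e-06 and Col4a1 with 0.000491. Without ligand the differences were 1.11 (edgeR adjusted p = 0.0491) and 0.86 (0.145), and with TGF-β1 they were 0.94 (0.0743) and 0.63 (0.158).

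The pair is transcribed head to head. In the RefSeq annotation of GRCm38.p6 the Col4a2 start on the plus strand and the Col4a1 start on the minus strand enclose 22 bases, chr8:11312805-11312826, shown here on the plus strand because both genes begin in them.
Col4a1 and Col4a2 starts: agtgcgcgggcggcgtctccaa
Whether the counting used strand is not given in the sources used here, so reads over these bases cannot be assigned between the genes.

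Another secreted factor, Pdgfb, a growth factor for pericytes and smooth muscle, was at 58.8, 57.7 and 62.2 CPM against 49, 48 and 43.7 CPM. It was higher in every KO-labelled library (log2 difference 0.34 ± 0.06, edgeR adjusted p = 0.431, DESeq2 adjusted p = 0.0269), and its differences were 0.41 without ligand and 0.13 with TGF-β1.

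The other 7 of the 10 had lower values in every KO-labelled library. Cpsf6, which encodes a subunit of the cleavage factor that chooses polyadenylation sites, was at 95.6, 85.6 and 96.1 CPM against 129, 123 and 123 CPM. Its log2 difference was -0.44 ± 0.06 (edgeR adjusted p = 0.11, DESeq2 adjusted p = 4.45e-06, and 0.00189 with all 18 libraries in the edgeR fit). Rnf17, a tudor-domain gene of germ cells, was low in all libraries, with 0.616, 0.515 and 0.787 CPM against 2.61, 2.22 and 2.72 CPM. It had the widest gap of the 10, -1.97 ± 0.26 (edgeR adjusted p = 0.11), and DESeq2 called it (adjusted p = 0.00152). The unadjusted p was 1.08e-06 both by DESeq2 and in the authors' deposited table, although the adjusted p was given there as 1.

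Ighm, the immunoglobulin heavy constant gene, was at 101, 94.9 and 76.9 CPM against 157, 135 and 140 CPM (log2 difference -0.67 ± 0.10, edgeR adjusted p = 0.158). It had the lowest DESeq2 p of any gene (adjusted p = 2.15e-07), and the difference was -0.40 without ligand and -0.80 with TGF-β1, where edgeR called it (adjusted p = 0.0119). The B cell receptor gene Cd79b was at 15.7, 13.2 and 14.9 CPM against 11, 14.7 and 18.6 CPM, with overlap (-0.02 ± 0.17). Its difference was -0.25 without ligand and -0.42 with TGF-β1, where its unadjusted edgeR p was 0.038 (adjusted p = 0.337). The part of B cells in the values of Ighm was not tested.

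Gsta3, a glutathione transferase, was at 27.3, 35.4 and 33.9 CPM against 46.8, 46.3 and 52.1 CPM. Its difference under BMP4 was -0.59 ± 0.10 (edgeR adjusted p = 0.267, DESeq2 adjusted p = 0.000217). In the separate tests without ligand and with TGF-β1 edgeR called it, at -0.71 (adjusted p = 0.00927) and -0.70 (adjusted p = 0.0105). Ednrb, an endothelin receptor, was at 117, 116 and 112 CPM against 138, 148 and 153 CPM (-0.36 ± 0.05, edgeR adjusted p = 0.158, DESeq2 adjusted p = 0.00019). Eps8, an actin-capping protein gene, was at 15.4, 14.5 and 11.9 CPM against 23, 19.8 and 21.1 CPM (-0.62 ± 0.11, edgeR adjusted p = 0.431, DESeq2 adjusted p = 0.00617). Each of these 3 genes was lower in all KO-labelled libraries. Leaving out single libraries kept the sign for each of the 10 genes, which their lack of overlap between groups fixes in advance.

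**Figure D3:**
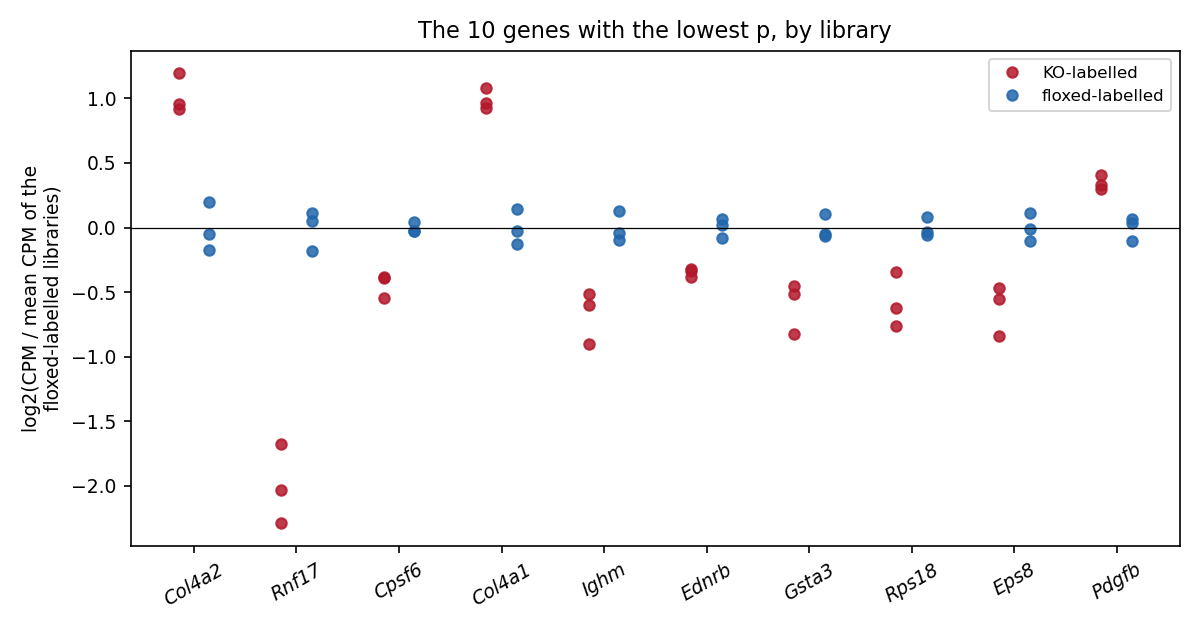
Log2 of CPM over the mean of the floxed-labelled libraries (y axis) for the 10 genes with the lowest p, 1 point per library. The groups are apart for every gene, with Col4a2, Col4a1 and Pdgfb above and 7 genes below the floxed-labelled libraries.

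The BMP pathway itself was described by role. Among the receptors and extracellular modulators, 14 of 28 listed genes were tested and none reached an unadjusted p under 0.05, with a median log2 difference of 0. Compared per length in FPKM (fragments scaled by gene length and library depth, the authors' values), the type I receptor Acvrl1 was at 15.7 ± 0.751 against 15.9 ± 0.741. The type II receptor Bmpr2 was at 6.74 ± 0.395 against 6.32 ± 0.364, and the type I receptor Acvr1 at 3.51 ± 0.12 against 3.54 ± 0.215. The type I receptors Bmpr1a and Bmpr1b were far lower. Bmpr1a was at 0.209 ± 0.114 against 0.148 ± 0.0415 FPKM. Bmpr1b was at 0.0214 ± 0.02 against 0 FPKM and was not tested. Bmp4 itself and the antagonist Nog were at 0 counts in all 6 libraries, which allows up to 0.167 CPM in the shallowest library.

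Of the transducers, Smad4 had the highest FPKM, 18.8 ± 0.743 against 18 ± 0.125. Smad1 and Smad5 were close to each other, with Smad1 at 3.99 ± 0.164 against 4.67 ± 0.279 FPKM and Smad5 at 4.17 ± 0.181 against 4.28 ± 0.358 FPKM. Smad9, the remaining BMP-responsive Smad, was at or below 0.0891 CPM in every library, under 3 counts, and was not tested. Smad5 was at 32.4, 29.9 and 30.9 CPM against 28.8, 33.6 and 33.4 CPM, and the groups overlapped (log2 difference -0.04 ± 0.08, adjusted p = 0.925). Smad4 differed by 0.06 ± 0.05 (adjusted p = 0.838). Over 25 Smads and Smad regulators tested, 1 was higher and 1 lower at an unadjusted p under 0.05, the phosphatase gene Ctdsp1 and Smad1, with a median of 0.05.

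Few targets of the BMP Smads passed the count filter. Of 23 listed targets 16 were below it, 7 of these with 0 counts in all 6 libraries. The other 7 targets were tested, and 3 were higher at an unadjusted p under 0.05 and none lower (median log2 difference 0.28, against 0 over the 13747 genes). None was called, and 1 of the 7 tested had a negative difference (-0.17, the lowest). The list's median was 0.14 without ligand and 0.39 with TGF-β1. Id3 was at 13.1, 12.9 and 20.7 CPM against 1.88, 10.6 and 9.04 CPM, with no overlap (1.12 ± 0.45, unadjusted p = 0.0338, adjusted p = 0.683). The myotonic dystrophy kinase gene Dmpk was at 3.98, 3.09 and 8.71 CPM against 0.963, 2.99 and 2.32 CPM (1.34 ± 0.45, adjusted p = 0.641). In both, floxed-labelled library 1, the library with almost no Lyz2, was the lowest, and KO-labelled library 3 the highest.

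Smad6 had the same order at the ends, 2.04, 2.47 and 3.44 CPM against 0.504, 2.11 and 1.65 CPM, but its groups overlapped (0.91 ± 0.42, adjusted p = 0.697). Without floxed-labelled library 1 the differences were 0.66 for Id3 and 0.50 for Smad6. The count of targets at an unadjusted p under 0.05 was 3 without it and 1 without KO-labelled library 3. Smad7 was at 5.59, 5.15 and 5.07 CPM against 4.45, 4.6 and 3.96 CPM (0.28 ± 0.14, adjusted p = 0.714). Id1 was between 0.134 and 1.03 CPM and was not tested.

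Id2 was at 25.3, 25.8 and 28.2 CPM against 21.4, 22.9 and 21.9 CPM (log2 difference 0.26 ± 0.07, unadjusted p = 0.00676, adjusted p = 0.638). Without ligand its order was the other way round, 18.6, 17.6 and 15.9 CPM in KO-labelled against 22.2, 19.7 and 20.9 CPM in floxed-labelled libraries, a difference of -0.27 (edgeR adjusted p = 0.234). With TGF-β1 it was 0.39 (edgeR adjusted p = 0.0488). The difference under BMP4 minus that without ligand was 0.53 ± 0.10 in the fit of all 18 libraries (unadjusted p = 6.78e-05, edgeR adjusted p = 0.121, DESeq2 adjusted p = 0.0433, and edgeR adjusted p = 0.61 without the floxed-labelled libraries numbered 1). That interaction tests the difference of differences for all genes, and edgeR called 0 of 14684 (0%), with 839 at an unadjusted p under 0.05 (5.71%). Against TGF-β1 it called 0 as well (0%), with 623 genes (4.24%) below an unadjusted 0.05. By DESeq2, the first interaction gave 11 calls and the second gave 1. Since libraries of the same label and number deviated together across treatments, the interactions were also fitted with the library number within label as a replicate block, and edgeR then called 7 and 1. The lowest p of the 7 was that of Malat1, an abundant nuclear non-coding RNA, at -0.69 ± 0.09 (edgeR adjusted p = 0.000986 with the block and 0.121 without it), and the other call was Gm10800. Cpsf6 was among the lowest p of the second, with a difference under BMP4 that exceeded that under TGF-β1 by -0.35 ± 0.08 (unadjusted p = 0.000191, edgeR adjusted p = 0.562): the floxed-labelled mean was 125 CPM under BMP4 but 90.1 CPM under TGF-β1, and the KO-labelled mean was 92.4 and 84.8 CPM.

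For side-by-side reading, the separate edgeR tests called 29 of 13466 genes without ligand (0.215%; 21 or 0.156% higher, 8 or 0.0594% lower) and 19 of 13528 with TGF-β1 (0.14%; 7 or 0.0517% higher, 12 or 0.0887% lower). At an unadjusted edgeR p under 0.05 there were 1995 genes without ligand and 1806 with TGF-β1, against 975 under BMP4. The part of the spread between libraries in these counts was not tested. The lowest p in both separate tests belonged to Lars2, followed in both by Gm23935 and the ribosomal RNA gene CT010467.1. Lars2, the mitochondrial leucyl-tRNA synthetase gene, which contains a stretch resembling ribosomal RNA, differed by 1.70 without ligand (edgeR adjusted p = 9.92e-08) and by 1.78 with TGF-β1 (edgeR adjusted p = 1.27e-05). Under BMP4 its difference was 1.33 (edgeR adjusted p = 0.679), and KO-labelled library 1 stood at 2870 CPM, the others of that label at 897 and 490 CPM, and the floxed-labelled libraries at 576, 421 and 689 CPM. Without KO-labelled library 1 the difference was 0.30 (edgeR adjusted p = 0.749).

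Secreted and matrix genes were mixed apart from the collagen pair. Of 20 matrix protein genes tested, 5 were higher and 1 lower at an unadjusted p under 0.05, and the median was -0.05. Besides the type IV collagens these were Emilin2, an elastin-associated glycoprotein (209, 183 and 235 CPM against 160, 178 and 172 CPM, difference 0.30), the laminin chain gene Lamc1 (0.22) and fibronectin, Fn1 (0.47), which were higher, and Thbs1, an antiangiogenic matrix protein, which was lower (-0.43). The higher count was 3 without floxed-labelled library 2. Of 15 angiogenic growth factor and receptor genes, 3 were higher (Pdgfb, Hgf and Vegfc) and 1 lower (Thbs1 again), with a median of 0.02, and without floxed-labelled library 1 or without KO-labelled library 2 only 1 was higher. Adjusted p-values of these genes other than the collagens and Pdgfb were 0.638 or more.

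Of 15 chemokines and receptors tested, 4 were lower and 1 higher at an unadjusted p under 0.05, and 12 had a negative difference (median -0.18). Ccr2, the receptor by which monocytes leave the marrow, was at 450, 343 and 437 CPM against 480, 526 and 731 CPM (-0.50 ± 0.15, adjusted p = 0.638). The inflammatory chemokine receptor Ccr1 was at 8.2, 5.35 and 7.13 CPM against 11.4, 9.42 and 11 CPM (-0.63 ± 0.16). Ccl9, a chemokine that attracts myeloid cells, was at 1030, 1020 and 1010 CPM against 1230, 1100 and 1150 CPM (-0.19 ± 0.06). These 3 genes did not overlap between groups. Of 11 angiogenic and angiostatic chemokines, 1 was lower, the platelet factor Pf4, at 205, 150 and 191 CPM against 233, 216 and 231 CPM (-0.32 ± 0.10, adjusted p = 0.638). Of 9 monocyte and progenitor markers tested, 2 were lower, Ccr2 among them, and the count was 1 without KO-labelled library 2 or without any 1 of the floxed-labelled libraries, and 4 without KO-labelled library 3. Summed monocyte markers touched at 678 CPM, as given above, and their part in the chemokine differences was not tested.

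Antigen presentation genes moved in both directions. Of 23 tested, 6 were lower and 3 higher at an unadjusted p under 0.05 (median -0.13). The class II invariant chain gene Cd74 was at 102, 94.6 and 112 CPM against 125, 128 and 142 CPM (-0.36 ± 0.07, edgeR adjusted p = 0.528, DESeq2 adjusted p = 0.0162). The class II chain genes H2-Aa, at 16.6, 16.3 and 30.6 CPM against 33.1, 35.7 and 39.2 CPM (-0.77 ± 0.21), and H2-Ab1, at 17.4, 16 and 31 CPM against 33.2, 33.2 and 36.5 CPM (-0.68 ± 0.21), had adjusted p-values of 0.638. In both, KO-labelled libraries 1 and 2 were low and library 3 lay close to the floxed-labelled libraries. H2-DMb2, a chain of the peptide exchange factor of class II molecules, split the same libraries in the other direction, with 12.3, 10.8 and 1.77 CPM against 1.38, 1.77 and 1.65 CPM (2.37 ± 0.58, adjusted p = 0.638). Without KO-labelled library 3, edgeR called H2-DMb2, H2-Aa and H2-Ab1 among 7 genes.

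Cell cycle lists held more positive than negative differences, with summed levels that overlapped between the labels: 729 to 1050 CPM in KO-labelled against 697 to 770 CPM in floxed-labelled libraries for DNA replication genes, and 846 to 1170 against 832 to 957 CPM for mitosis genes. Of 32 DNA replication genes, all tested, 9 were higher and none lower at an unadjusted p under 0.05, 28 had a positive difference, and the median was 0.23. None was called (lowest adjusted p 0.638). The helicase loader gene Mcm10 was at 11.3, 11.9 and 15 CPM against 9.81, 9.25 and 10 CPM (0.39 ± 0.13). The polymerase gene Pole was at 12.8, 14.1 and 22.2 CPM against 11.6, 9.64 and 12.2 CPM (0.55 ± 0.20), and the helicase gene Mcm2 at 16.9, 16.6 and 26.5 CPM against 15, 14.6 and 15.2 CPM (0.42 ± 0.17). The replication clamp gene Pcna was not among the 9 (difference 0.03, adjusted p = 0.955).

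KO-labelled library 3 was the highest in each of the 3 examples, and the count of 9 was 1 without it, 5 without floxed-labelled library 1, 1 without floxed-labelled library 2 and 17 without KO-labelled library 1, and 2 replication genes were lower without KO-labelled library 3. The median of the list was -0.04 without ligand and -0.06 with TGF-β1. Of 32 mitosis genes, 3 were higher, Aurkb, Foxm1 and Anln, and 29 had a positive difference, with a median of 0.16 under BMP4 and of -0.04 and 0.03 in the other treatments. The mitosis count was 1 without KO-labelled library 3, 1 without floxed-labelled library 2 and 17 without KO-labelled library 1.

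The lists of ribosomal protein, respiratory chain and mitochondrial genome genes were added after values had been seen. Of 77 cytosolic ribosomal protein genes tested, 45 were lower and none higher at an unadjusted p under 0.05, 74 had a negative difference, and the median was -0.16. The groups did not overlap for 51. Rps18 had the widest gap of those at an unadjusted p under 0.05, with 285, 259 and 346 CPM against 465, 422 and 429 CPM (-0.57 ± 0.10, edgeR adjusted p = 0.376, DESeq2 adjusted p = 4.45e-06). Its difference was -0.54 without ligand, where edgeR called it (adjusted p = 0.0491), and -0.48 with TGF-β1 (edgeR adjusted p = 0.122). Rps19 was at 371, 341 and 327 CPM against 418, 414 and 404 CPM (-0.26, DESeq2 adjusted p = 0.0276). As a share of counts, the ribosomal protein genes made up 2.8% to 2.98% in KO-labelled and 3.16% to 3.29% in floxed-labelled libraries. The count of 45 was 24 without KO-labelled library 3 and 25 without floxed-labelled library 1. The median was -0.21 without ligand and -0.12 with TGF-β1.

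Of 78 nuclear genes of the respiratory chain, 17 were lower and none higher (median -0.10), led by Atp5e, a subunit of ATP synthase, at 58.4, 60.1 and 50.4 CPM against 72.3, 67.5 and 72.3 CPM (-0.33, edgeR adjusted p = 0.528). The count was 10 without floxed-labelled library 1, 10 without floxed-labelled library 3 and 11 without KO-labelled library 3. Of 24 transcripts of the mitochondrial genome, 7 were lower and none higher (median -0.11), and the count was 4 without floxed-labelled library 2. They took 1.08% to 1.16% of the counts in KO-labelled and 1.2% to 1.26% in floxed-labelled libraries. The share of ribosomal RNA type transcripts, given above, was highest in KO-labelled library 1. Its part in these differences was not tested.

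**Figure D4:**
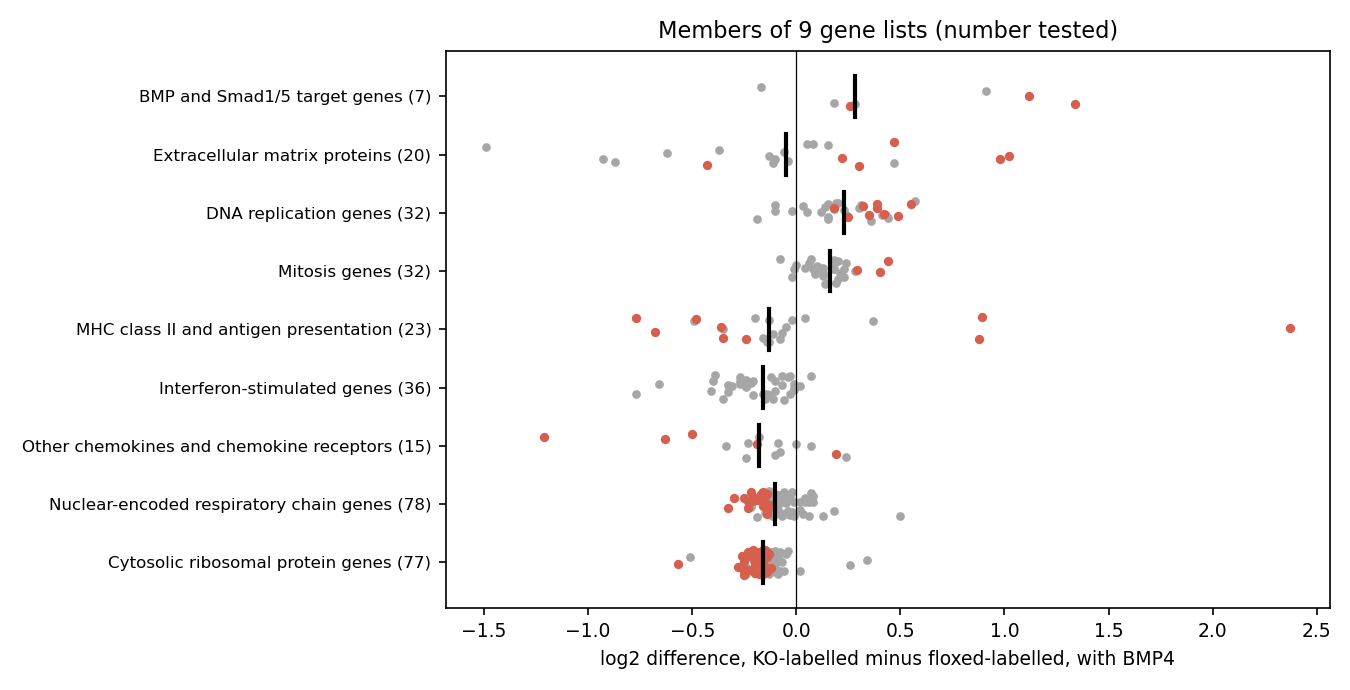
Log2 difference of each tested member of 9 gene lists (x axis), with members at an unadjusted p under 0.05 in red, the others in grey and a black bar at the list's median. Ribosomal protein genes lie mostly to the left (median -0.16) and DNA replication genes mostly to the right (median 0.23), while antigen presentation genes spread to both sides.

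Of 36 interferon-stimulated genes tested, none reached an unadjusted p under 0.05 and none was without overlap between the labels, while 34 had a negative difference (median -0.16). Their summed levels overlapped, at 3140 to 4760 CPM in KO-labelled against 3810 to 4530 CPM in floxed-labelled libraries. Ifit3, an interferon-induced antiviral gene, was at 172, 106 and 123 CPM against 184, 177 and 133 CPM, where KO-labelled library 1 lay among the floxed-labelled libraries. Without that library 22 of the genes were lower at an unadjusted p under 0.05, and without floxed-labelled library 3 there were 5. Their median was -0.22 without ligand and -0.09 with TGF-β1.

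Most of the remaining lists held few members past an unadjusted p of 0.05. Counts higher and lower were 1 and 1 of 24 TGF-β and Smad3 targets, 0 and 2 of 25 matrix proteases and inhibitors, 0 and 0 of 23 pro-inflammatory genes, and 2 and 0 of 24 alternative activation and scavenger genes. They were 1 and 1 of 27 sterol synthesis genes, 2 and 1 of 19 lipid handling genes, 1 and 1 of 27 hypoxia and glycolysis genes, 0 and 1 of 20 iron and heme genes, and 0 and 1 of 25 immediate early and heat shock genes. For markers of other cells they were 0 and 2 of 7 osteoclast and 0 and 1 of 6 fibroblast and stromal genes. All 6 fibroblast and stromal markers tested had a negative difference (median -0.89, -0.69 without ligand and -0.9 with TGF-β1). Of 3 erythroid and platelet markers, 1 was lower. None of 12 neutrophil, 9 dendritic cell, 3 lymphoid or 2 mast, basophil and eosinophil markers passed in either direction. Of the 12 neutrophil markers 11 had a negative difference (median -0.16, -0.22 without ligand and -0.26 with TGF-β1). Without KO-labelled library 3, 5 of them were lower at that p, and 2 dendritic cell markers were lower without KO-labelled library 1. Single libraries moved several of these counts: without KO-labelled library 1, 5 pro-inflammatory genes were lower, 6 sterol genes and 4 TGF-β targets higher and 3 alternative activation genes lower. Without floxed-labelled library 1, 5 sterol genes and no lipid handling gene were higher. Without floxed-labelled library 3 no lipid handling gene was higher. Among these, Folr2, a folate receptor of resident macrophages, was at 42.4, 36.1 and 44.9 CPM against 32, 30.1 and 29.9 CPM (0.42 ± 0.08, edgeR adjusted p = 0.522, DESeq2 adjusted p = 0.0327). Apoe, which carries lipid out of macrophages, was at 4210, 3700 and 4250 CPM against 4960, 5110 and 4440 CPM (-0.26 ± 0.07, edgeR adjusted p = 0.638).

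Genes close to Lyz2 were compared because the Cre allele lies there. The list set beforehand reached 10 Mb to either side, and the window of 0.5 Mb, the narrowest of several examined, was added to it. Within 0.5 Mb of Lyz2, 11 genes were tested, Lyz2 included, of which 4 were lower and none higher at an unadjusted p under 0.05, and 6 had lower values with no overlap. The 4 were Cpsf6, which lies beyond Lyz1, 83 kb from Lyz2 (middle to middle), Lyz1 at 11 kb, the chromatin reader gene Yeats4 at 60 kb on the other side and the chaperonin gene Cct2 at 222 kb. Yeats4 was at 55.2, 53.3 and 51.5 CPM against 67.3, 66.1 and 61.6 CPM (-0.29 ± 0.06, edgeR adjusted p = 0.485), and Cct2 at 202, 201 and 192 CPM against 222, 209 and 213 CPM (-0.12 ± 0.05). Mdm1, at 876 kb, was at 10.5, 12.1 and 10.4 CPM against 17.1, 14.3 and 14.7 CPM (-0.49 ± 0.11, edgeR adjusted p = 0.528). Without ligand the differences were -0.37 for Cpsf6, -1.02 for Lyz1, -0.28 for Yeats4, -0.15 for Cct2 and -0.49 for Mdm1. There edgeR called Cpsf6 (adjusted p = 0.0491) and Lyz1 (adjusted p = 0.0351), but not Yeats4, Cct2 or Mdm1. With TGF-β1 the differences were -0.09, -0.58, -0.1, -0.15 and -0.28 in the same order, and none was called.

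Within 10 Mb of Lyz2, the nearer genes included, 78 genes were tested, with 1 higher and 9 lower at an unadjusted p under 0.05. The lower count ranged from 6 to 10 when single libraries were left out. The groups did not overlap for 3 genes with higher and 14 with lower values. By both counts the lower share was smaller than within 0.5 Mb of Lyz2 and above that of all genes. Within 10 Mb of Smad1, 220 genes were tested, with 8 higher and 5 lower. The higher count was 4 without KO-labelled library 3 and 5 without floxed-labelled library 1 or 2. Within 0.5 Mb of Smad1 it was the only gene of 7 at an unadjusted p under 0.05.

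**Figure D5:**
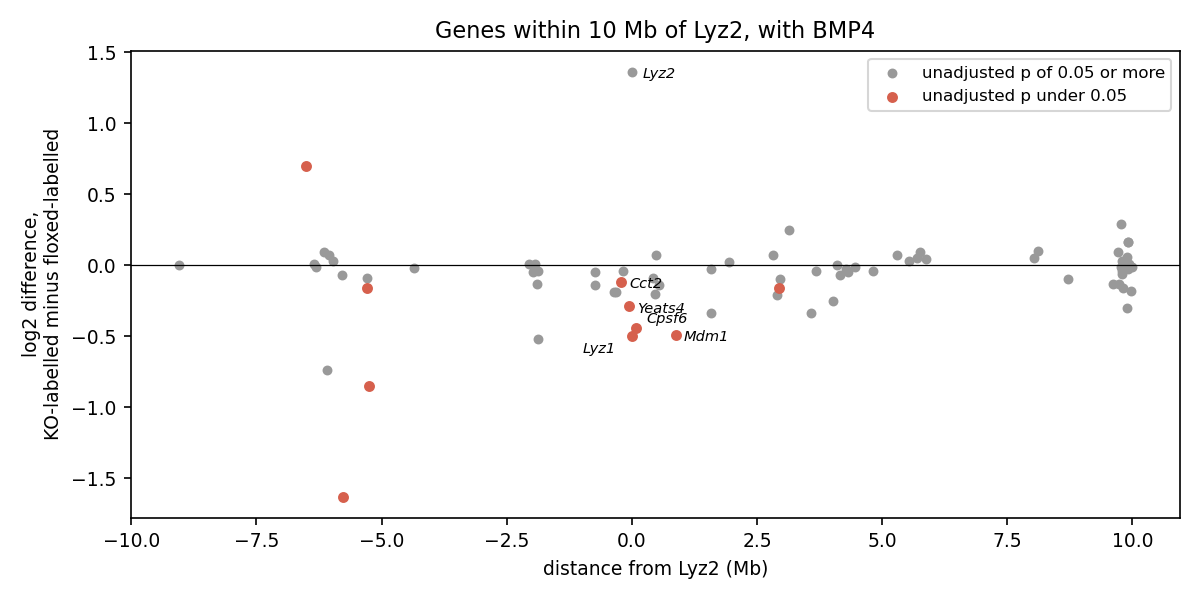
Log2 difference (y axis) of the 78 tested genes within 10 Mb of Lyz2 against their distance from it (x axis, Mb), with genes at an unadjusted p under 0.05 in red. The named red genes within 1 Mb, Cpsf6, Lyz1, Yeats4, Cct2 and Mdm1, all lie below 0, and Lyz2 itself lies at 1.36.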

How the data were processed

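Polyadenylated RNA of 18 libraries was sequenced as paired reads of 150 bp. Per the submitters' processing notes, TopHat2 2.0.9, HTSeq 0.6.1, Cufflinks 2.1.1 and build mm10 (GRCm38.p6) were used, and the role of each is not stated there. Per the file headers, the authors deposited read counts per gene and FPKM, and 78 further columns of per-sample values were not used. The log2 fold changes and p-values in the authors' deposited table are their own comparisons.

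From the counts, edgeR 4.0.16 in R 4.3.3 (TMM, filterByExpr, quasi-likelihood F test, biological coefficient of variation 9.26%, 4 residual and 5.32 prior degrees of freedom) compared the 6 libraries with BMP4. Libraries of the same label and number deviated together across treatments (r 0.13 to 0.37 in 18 pairs), so those of other treatments entered only the interaction fits and an alternative. Printed CPM use TMM factors over the 18 libraries. Floors of 3 counts reflect counting error alone. A chi-square comparison over genes found no duplicate among the libraries of the same group. Pairs of libraries from different groups were not compared in this way.

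Genes were named by a rule: the 10 with the lowest p whose higher group mean reached 1 CPM, 11 pathway genes, and from each list called members or else the most abundant, of which only some are printed. List members printed for an unadjusted p under 0.05 were chosen after their values were seen. The members and lists were chosen with earlier results of these data known. The script was tested on simulated data. Alternatives were RLE and total count scaling, other filters, DESeq2 1.42.0, all 18 libraries, replicate blocks and each library left out. Some genes counted in the lists are not reported here by name.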

Additional observations from a re-analysis of the deposited data

How the results depend on the processing

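The count of genes called under BMP4, 0 with edgeR on 6 libraries, stayed at 0 with RLE or total count scaling, which moved the median of all genes by 0 (log2), with a mean of at least 1 CPM and with a replicate block in the 6 libraries. It was 29 with DESeq2, 4 with all 18 libraries, 10 with all 18 libraries and a replicate block, and 310 with no low-count filter, where the prior degrees of freedom came out infinite instead of 5.32. Leaving out single libraries gave 0 to 7: 7 without KO-labelled library 3, and 3 each without KO-labelled library 2 and floxed-labelled library 1. Same-numbered libraries of the 2 labels did not deviate together under BMP4 (r -0.03, -0.13 and 0.01), so no pairing of the labels by number was seen. With 3 libraries per group these values cannot decide it, and a day or batch shared by number was not tested. Without ligand, 29 calls became 168 with DESeq2, 351 with all 18 libraries, 12 with the replicate block and 10 without floxed-labelled library 1. With TGF-β1, 19 became 192, 57, 6 and 11 in the same order. The interaction against no ligand, 0 calls, gave 7 with a replicate block within label and 11 with DESeq2. Against TGF-β1, 0 calls became 1 with each of these and 1 without the floxed-labelled libraries numbered 1, each time Gm10800. The cause of these changes was not tested. None of the 10 genes of lowest p changed sign. Their lack of overlap between groups fixes this in advance where single libraries are left out. With single libraries left out, signs turned for genes with differences near 0 or with 1 deviating library: Adgre1 (-0.21 to 0.02), Malat1 (-0.11 to 0.01) and H2-T23 (-1.09 to 0.02) without KO-labelled library 2, Acvrl1 (-0.06 to 0.01) without KO-labelled library 2 or floxed-labelled library 3, Slc15a2 (-2.73 to 0.63) without floxed-labelled library 2, Cd79b (-0.20 to 0.19) without KO-labelled library 2 or floxed-labelled library 3 (and 0 and 0.01 with the replicate blocks of 6 and 18 libraries), Csf1r (-0.02 to 0.06) without floxed-labelled library 1, Pcna (-0.04 to 0.12) without KO-labelled library 3 or floxed-labelled library 2, and Acvr1 (-0.06 to 0.03) without KO-labelled library 1 or floxed-labelled library 2. List counts with each library left out were added after seeing the data. With 3 libraries per label, low-count genes such as Rnf17 and Smad6 rest on few reads.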

Other observations

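Several genes differed widely between libraries of the same label, with the same library numbers high or low in every treatment. These genes were chosen after their values were seen. The pseudogene Gm6969 was at 41.3, 1.39 and 42.4 CPM in KO-labelled libraries with BMP4 and at 0.609 to 0.713 CPM in floxed-labelled libraries, and KO-labelled library 2 was also the low one without ligand (36.2, 1.77 and 38.6 CPM) and with TGF-β1 (40.5, 1.25 and 38.3 CPM). Gm11361 was at 33.6, 31.7 and 2.36 CPM in KO-labelled libraries with BMP4, with library 3 low as in H2-DMb2. Firre, a long non-coding RNA of the X chromosome, was at 6.63, 43.8 and 8.66 CPM against 6.7, 5.87 and 6.24 CPM, and KO-labelled library 2 was the highest without ligand (37.6 CPM) and with TGF-β1 (35 CPM) too. The class I gene H2-T23 was at 185, 22 and 264 CPM against 192, 314 and 158 CPM, again lowest in KO-labelled library 2 in each treatment (31.9 CPM without ligand, 21.5 CPM with TGF-β1). The peptide transporter Slc15a2 was at 4.13, 24.6 and 1.69 CPM in floxed-labelled libraries with BMP4, and library 2 was the highest there without ligand (22.4 CPM) and with TGF-β1 (17.1 CPM).

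BMP targets that were low in floxed-labelled library 1 with BMP4 were low there with TGF-β1 too: Id3 was at 9.91, 25.3 and 24.2 CPM, Smad6 at 18, 26.5 and 22 CPM and Dmpk at 0.946, 3.15 and 3.93 CPM in the floxed-labelled libraries, lowest in library 1 each time. Without ligand, Id3 was at 0.813, 1.46 and 1.06 CPM in the same libraries. The library numbered 1 of that label is also the one in which Lyz2 was near 0 in each treatment.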
